A study of Homo sapiens with 6 samples.

Results

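Chromatin accessibility was examined at 38 genes of cholesterol and fatty acid synthesis, taken by name from a list of pathway enzymes and their regulators, among 38336 protein-coding and lncRNA genes of the GRCh38.p14 table. For each gene the peaks with a midpoint within 1 kb of either end of its span (called gene-end peaks here) and the peaks overlapping the span were collected. All 38 names were found, and all are protein-coding. The assay was ATAC-seq, in which a transposase inserts adapters into open DNA. It was run on NCI-H1703, an established cell line of human lung squamous cell carcinoma. In 3 libraries, titled ASO, the cells carried silenced DLGAP1-AS2, a long non-coding RNA, and 3 control libraries were titled NC. The dose, the duration and the agent given to control cells are not in the labels, nor is it said whether replicates were separate cultures, so p-values measure only the spread between these libraries. The title of the series ties DLGAP1-AS2 to the making of phosphatidic acid, a lipid built from fatty acyl chains, and to YAP signalling. Accessibility does not measure RNA, so the silencing itself was not checked here. The comparison asks whether silencing came with altered accessibility at the genes that make sterols and fatty acids.

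Cells build cholesterol from acetyl-CoA through mevalonate, isoprenoid units, squalene and a chain of sterol intermediates. Fatty acids are built from the same acetyl-CoA by carboxylation, chain assembly, desaturation and elongation, and are then activated to acyl-CoA before they enter glycerolipids such as phosphatidic acid. Both branches are controlled by the SREBP transcription factors, which SCAP escorts out of the endoplasmic reticulum when sterols are low and INSIG proteins hold back when sterols are plentiful. SREBPs act at promoters together with NF-Y, which binds CCAAT boxes, and SP1, which binds GC boxes.

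The lists held 91346 to 170882 peaks on the chromosomes. Read totals are unknown, and a relative coverage, the lowest background implied by the peaks of a list, ran from 0.237 in silenced replicate 3 to 0.464 in control replicate 2. The height of a peak is the number of fragments piled up at it, and it is not corrected for depth. At the gene ends called in every library its median was 17 in silenced replicate 3 and 34 to 40 in the other 5 libraries. Silenced replicate 3 had the lowest height at 33 of the 34 members with a gene-end peak in all 6 libraries. Groups were therefore compared by the percentile of a peak's height among 15504 genes with such a peak in every library, 100 being the tallest. Of 6 squamous marker genes, only SOX2 had a gene-end peak in all 6 libraries, and the other 5, KRT5, KRT14, KRT6A, DSG3 and PKP1, had one in at most 2. Of 4 adenocarcinoma and alveolar markers, NKX2-1, NAPSA and SFTPC had one in all 6. The summed heights of the squamous list were 10 to 26 in silenced and 20 to 23 in control libraries. Those of the alveolar list were 26 to 59 in silenced and 44 to 54 in control libraries, and those of 4 blood cell markers were 0 to 8 and 0 to 4. The sums of 4 fibroblast markers were 4 to 10 in silenced and 5 to 10 in control libraries.

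Promoter windows from RefSeq (GRCh38.p14), 250 bases before to 50 after a listed transcription start, were found for 35 members, 52 windows in all. FDFT1, SQLE and FASN had no entry. A peak overlapped 38 of the 52 windows (73.1%) in all 6 libraries, against 36.3% of 35115 windows of all genes. The windows of all genes include those of lncRNA genes, whereas all members are protein-coding. A gene-end peak in all 6 libraries was found at 58.0% of protein-coding genes and 40.4% of protein-coding and lncRNA genes together. Windows of the same gene can share bases and peaks. The 4 sequences below show open promoters of the pathway that hold a match to the SREBP element or to the E-box, which is bound by bHLH factors such as USF and, as a pair, by ChREBP. Each is the 250 bases up to the listed start, 5′ to 3′ on the gene's strand, with the match in capitals. SREBF2 lies at chr22:41832855-41833104 (plus strand), INSIG1 at chr7:155297628-155297877 (plus strand), SC5D at chr11:121292521-121292770 (plus strand) and ELOVL5 at chr6:53348951-53349200 (minus strand).
SREBF2: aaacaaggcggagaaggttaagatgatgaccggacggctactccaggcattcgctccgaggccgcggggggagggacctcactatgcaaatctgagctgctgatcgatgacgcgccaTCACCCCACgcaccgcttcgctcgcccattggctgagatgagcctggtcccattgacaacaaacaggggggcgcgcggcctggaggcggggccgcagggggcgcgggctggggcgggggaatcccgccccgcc
INSIG1: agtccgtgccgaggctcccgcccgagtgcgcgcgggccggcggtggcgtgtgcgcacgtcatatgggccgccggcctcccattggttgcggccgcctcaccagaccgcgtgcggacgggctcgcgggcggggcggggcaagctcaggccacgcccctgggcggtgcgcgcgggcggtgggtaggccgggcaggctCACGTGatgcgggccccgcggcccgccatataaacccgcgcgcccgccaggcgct
SC5D: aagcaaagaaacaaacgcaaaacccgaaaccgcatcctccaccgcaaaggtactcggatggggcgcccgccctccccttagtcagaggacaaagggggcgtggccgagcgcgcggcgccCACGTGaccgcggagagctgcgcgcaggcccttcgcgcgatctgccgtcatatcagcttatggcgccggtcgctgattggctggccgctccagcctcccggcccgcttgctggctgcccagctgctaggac
ELOVL5: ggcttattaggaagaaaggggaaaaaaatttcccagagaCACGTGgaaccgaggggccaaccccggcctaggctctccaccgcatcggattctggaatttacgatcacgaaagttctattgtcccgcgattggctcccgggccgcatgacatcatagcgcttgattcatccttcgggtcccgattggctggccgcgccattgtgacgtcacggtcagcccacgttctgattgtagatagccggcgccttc

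The capitals in SREBF2 mark the SRE core TCACNCCAC, which began 133 bases before the start. Those in the other 3 promoters mark the E-box CACGTG, which began 55 bases before the start in INSIG1, 131 in SC5D and 211 in ELOVL5. Both strands of each 300-base window were searched. The SRE core was found in 2 of 35 members, SREBF2 and, at an internal start, ACSL1 (5.71%). It was found in 1.39% of 27304 protein-coding and lncRNA genes with a window. The E-box was found in 5 members, LSS, SC5D, INSIG1, SCAP and ELOVL5 (14.3%), against 8.78% of all genes. The CCAAT box (CCAAT) was found in 25 members (71.4%, against 39.7% of all genes) and the GC box (GGGCGG) in 33 (94.3%, against 48.3%). Among windows under a peak in all 6 libraries, the CCAAT box was in 65.8% of 38 member windows and 38.2% of 12760 windows of all genes, and the GC box in 97.4% and 73.3%. None of these motifs contains another, though matches can share end bases, and a match is a string of letters, not a bound site. Member windows were also richer in G and C (median 67.5%, against 58.7% over all windows). Among windows under a peak in all 6 libraries the medians were closer, 69% for members and 66% for all genes.

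Accessible gene ends were a property of nearly the whole pathway in both groups. At 34 of the 38 members (89.5%) every library had a gene-end peak, against 58.0% of 20033 protein-coding genes. ACSL5 had none in any library, a state shared by 16.5% of protein-coding genes, and PMVK, FDFT1 and SCAP had one in 1 library only. Silenced replicates 1, 2 and 3 had such a peak at 35, 35 and 34 members, and the corresponding control libraries at 34, 34 and 35. Silenced libraries averaged 34.7 ± 0.577 members (SD, n = 3) and controls 34.3 ± 0.577 (SD, n = 3), which is no more than replicates differ among themselves (exact permutation test, two-sided, p = 1; with 3 libraries against 3 no p below 0.1 is possible). Counting only peaks with an FDR (the authors' adjusted p-value) of at most 1e-05 turned the sign, with 31.3 ± 3.79 (SD, n = 3) silenced and 33.3 ± 0.577 (SD, n = 3) control members (exact permutation p = 0.9). Silenced replicate 3, the library of lowest coverage, then had 27 members and the others 33 to 34.

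In 24 of the 32 members with both a gene-end peak in every library and a listed start, the peak's midpoint lay within 300 bp of that start in all 6 libraries. The median distance was 140 bp. At 18 of the 34 members the peak also lay within 1 kb of an end of another gene, so it cannot be assigned to the member alone. Among these pairs are FADS1 with FADS2, FDPS with PKLR, SREBF2 with CCDC134, IDI1 with WDR37 and ACACA with TADA2A.

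**Figure D1:**
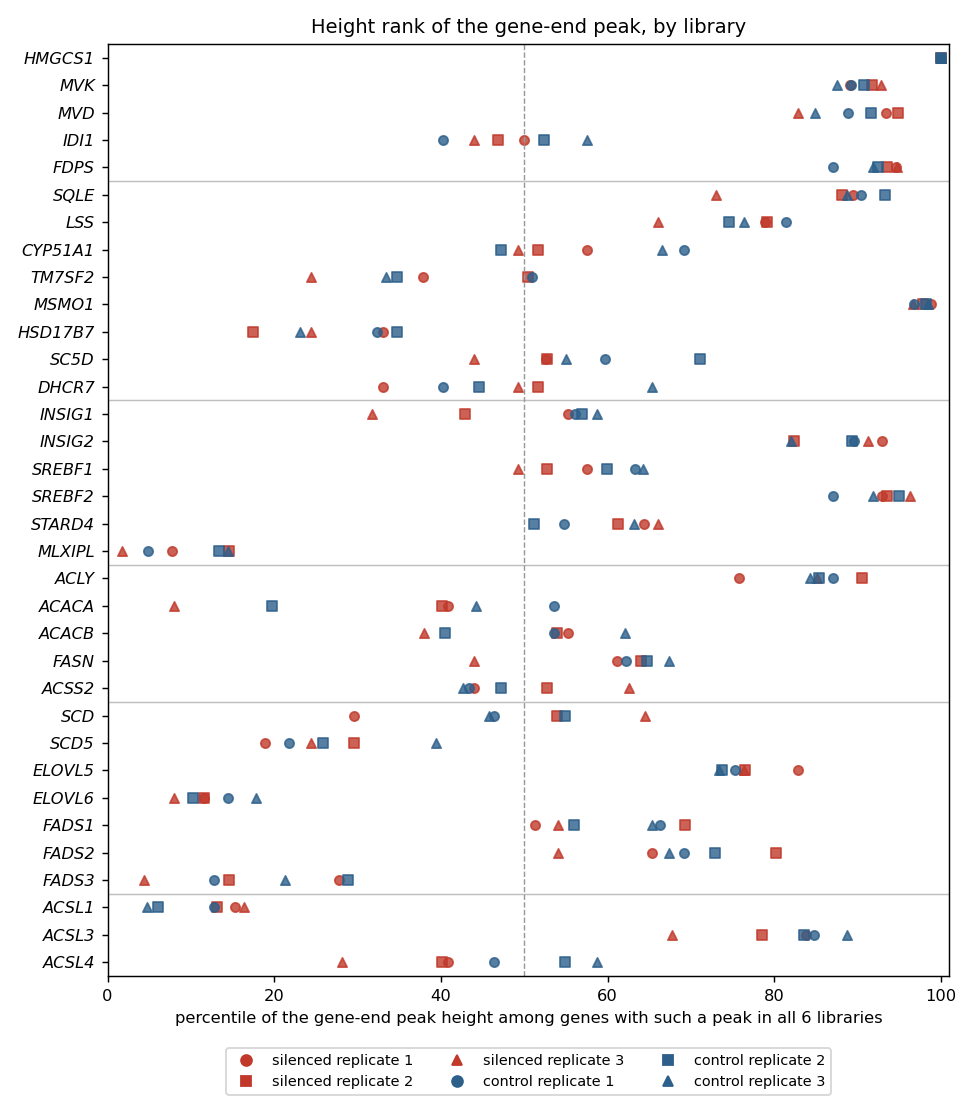
Percentile of the height of the gene-end peak (x axis, 0 to 100, among genes with such a peak in all 6 libraries) for the 34 members called in every library, grouped by role from the mevalonate arm at the top to the acyl-CoA synthetases at the bottom. Each symbol is 1 library, red for silenced and blue for control. HMGCS1 sits at the right edge in all 6 libraries, MLXIPL, ACSL1 and ELOVL6 near the left edge, and the colours intermix at most genes.

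The mevalonate and isoprenoid arm had the highest median percentile of the roles, 90.2 over its 5 tested genes. The median was 57.4 over all tested members and 49.6 over all tested genes. Within the arm the mean percentile ran from 48.5 at IDI1 to 99.99 at HMGCS1. The peaks of MVK, MVD, IDI1 and FDPS also lay within 1 kb of an end of MMAB, SNAI3-AS1, WDR37 and PKLR, respectively. They cannot be assigned to the arm alone. HMGCS1, which encodes the cytosolic synthase that makes HMG-CoA, had the tallest peak of all members (GRCh38, chromosome 5, region 43312930 to 43313970, at the gene's right end, where its listed starts lie on the minus strand). Fragment pileup reached 326, 396 and 225 under silencing and 346, 365 and 383 in controls (each time replicates 1, 2 and 3). Its percentile was 99.98 or above in every library, and the groups overlapped. MVK and MVD, a kinase and the decarboxylase that turn mevalonate into isopentenyl units, had mean percentiles of 90.2 and 89.4 over the 6 libraries.

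FDPS makes farnesyl diphosphate, the branch point to sterols and to protein prenylation. Its gene-end peak (chromosome 1, 155308093 to 155309162) stood at 103, 111 and 64 fragments in silenced and 78, 106 and 93 in control replicates 1, 2 and 3. Ranked within each library these were the 94.6, 93.5 and 94.8 percentiles in silenced and 87.0, 92.5 and 91.8 in control cells, so all 3 silenced libraries lay above all 3 control libraries. The difference in rank score was 0.26 (SE 0.14), with adjusted p = 0.922 by limma with Benjamini-Hochberg adjustment over all genes, and 0.17 without control replicate 1. The rank score is the percentile turned into a standard normal value, so 1 unit is 1 SD of the spread over genes. IDI1, the isomerase of the isopentenyl units, had a mean percentile of 48.5 for its gene-end peak, which was not its tallest peak, as the listed starts described below show.

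PMVK, which phosphorylates phosphomevalonate, and FDFT1, which joins farnesyl units into squalene, lacked a gene-end peak in most libraries. PMVK had one in silenced replicate 2 (height 6), and FDFT1 one in silenced replicate 1 (height 3). Both genes carried a tall peak inside the span in every library. At PMVK it lay at chromosome 1, 154936366 to 154937731, over the listed start, with heights of 44, 53 and 18 in silenced and 41, 51 and 45 in control replicates 1, 2 and 3. At FDFT1 it lay at chromosome 8, 11802103 to 11803091, with heights of 45, 49 and 15 in silenced and 31, 48 and 54 in control replicates 1, 2 and 3. Apart from the low values of silenced replicate 3 the heights of the groups overlapped at both genes and the peaks lay too far inside the span to count as gene-end peaks.

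In the squalene and sterol arm, 8 of 9 genes had a gene-end peak in all 6 libraries. SQLE, the squalene epoxidase and a rate-limiting step of sterol synthesis, had heights of 84, 92 and 30 in silenced and 87, 109 and 84 in control replicates 1, 2 and 3. Its percentiles were 89.4, 88.1 and 73.0 in silenced and 90.4, 93.2 and 88.7 in control libraries. The lowest value was that of silenced replicate 3, the groups overlapped, and the score difference of -0.32 (SE 0.17) did not pass (limma adjusted p = 0.922).

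MSMO1, a C4-demethylating oxidase, had the next tallest peak after HMGCS1 (chromosome 4, heights 146, 147 and 73 in silenced and 116, 147 and 138 in control replicates 1, 2 and 3), with percentiles between 96.6 and 98.9. At the low end of this arm were HSD17B7, a sterol 3-keto reductase, with a mean percentile of 27.5, and TM7SF2, a C14 reductase, with 38.6. LSS, the lanosterol-forming cyclase, had a mean percentile of 76.1, CYP51A1, the lanosterol demethylase, 56.9, and DHCR7, the enzyme of the last step to cholesterol, 47.3.

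SC5D introduces a double bond into the sterol ring. Its peak (chromosome 11, 121292270 to 121293371, over the promoter printed above) had heights of 36, 42 and 15 in silenced and 43, 62 and 40 in control replicates 1, 2 and 3. The percentiles were 52.6, 52.7 and 44.0 in silenced and 59.7, 71.1 and 55.0 in control libraries, with every silenced library below every control library. The score difference was -0.32 (SE 0.17) and did not pass (limma adjusted p = 0.922). It was -0.19 without control replicate 2 and -0.56 when genes were ranked by fold enrichment.

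Among the regulators, SREBF2, which encodes the SREBP of sterol synthesis, was far more accessible at its gene end than SREBF1, which encodes SREBP-1a and SREBP-1c. SREBF2 had heights of 95, 111 and 71 in silenced and 78, 118 and 93 in control replicates 1, 2 and 3 (chromosome 22, over the promoter printed above). SREBF1 had heights of 40, 42 and 17 in silenced and 46, 49 and 48 in control replicates 1, 2 and 3. Within each of the 6 libraries SREBF2 was the taller, and within either gene the groups' heights overlapped at SREBF2 but not at SREBF1.

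By rank, SREBF2 held percentiles of 93.0, 93.5 and 96.2 in silenced and 87.0, 95.0 and 91.8 in control libraries, which overlap. SREBF1 held 57.6, 52.7 and 49.2 in silenced and 63.3, 60.0 and 64.2 in control libraries, which do not. The score difference of SREBF1 was -0.24 (SE 0.16, limma adjusted p = 0.922), and it was 0.08 when genes were ranked by fold enrichment in place of height, so its direction depended on the measure. The SREBF1 peak (chromosome 17, 17835938 to 17836860) had midpoints 559 to 714 bases into the gene from its listed start, and no peak overlapped the listed start window itself in any library.

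INSIG1, the sterol-responsive anchor of SCAP, had gene-end heights of 38, 34 and 11 in silenced and 40, 46 and 43 in control replicates 1, 2 and 3 (chromosome 7, 155297406 to 155298119). Its percentiles were 55.3, 42.9 and 31.7 in silenced and 56.1, 57.0 and 58.7 in control libraries, so all 3 silenced libraries lay below the control libraries, the first by a small margin. The score difference was -0.36 (SE 0.18, unadjusted p = 0.0605, limma adjusted p = 0.922), and -0.20 without silenced replicate 3. INSIG2, its paralog, had a mean percentile of 87.9 with overlapping groups.

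SCAP had a gene-end peak in control replicate 3 only (height 9), but a peak over its listed start (chromosome 3, 47475486 to 47476385) stood in every library, with heights of 40, 34 and 12 in silenced and 30, 29 and 44 in control replicates 1, 2 and 3. These overlapped between groups. STARD4, a carrier of sterols between membranes, had a mean percentile of 60.1. MLXIPL, which encodes ChREBP, the glucose-responsive activator of lipogenic genes, had the lowest mean percentile of the 34 members (9.42). Its gene-end heights were 9, 15 and 3 in silenced and 8, 15 and 14 in control replicates 1, 2 and 3. The FDR of that peak was as weak as 0.403 in the library where it was weakest, and its midpoint lay at -23783 to -23380 bases from the listed start, that is, upstream of it.

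The genes of fatty acid synthesis proper were open at a gene end in all 6 libraries at 5 of 5. ACLY, which makes cytosolic acetyl-CoA from citrate, had gene-end heights of 59, 99 and 43 in silenced and 78, 85 and 74 in control replicates 1, 2 and 3. That peak lay at -11549 to -11487 bases from the listed start and within 1 kb of an end of ODAD4, so it is not a peak over ACLY's own starts. FASN, the multi-domain synthase, had 43, 53 and 15 in silenced and 45, 54 and 51 in control replicates 1, 2 and 3. ACSS2, which makes acetyl-CoA from acetate, had 30, 42 and 23 in silenced and 31, 38 and 31 in control replicates 1, 2 and 3. Their mean percentiles were 84.7, 60.6 and 48.7, and the percentiles of the groups overlapped at all 3 genes.

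ACACA and ACACB encode the acetyl-CoA carboxylases that make malonyl-CoA, ACACA for synthesis in the cytosol and ACACB at mitochondria. The gene-end peak of ACACA had heights of 28, 32 and 5 in silenced and 38, 19 and 32 in control replicates 1, 2 and 3. Its percentile ranged from 7.98 in silenced replicate 3 to 53.5 in control replicate 1, the widest range of the 5 genes. ACACB had 38, 43 and 13 in silenced and 38, 33 and 46 in control replicates 1, 2 and 3, with a mean percentile of 50.5. The ACACB peak lay at -5344 to -5247 bases from the listed start, within 1 kb of an end of UNG. The groups overlapped at both.

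All 7 genes of desaturation and elongation had a gene-end peak in every library. SCD, the main stearoyl-CoA desaturase, had heights of 21, 43 and 24 in silenced and 33, 44 and 33 in control replicates 1, 2 and 3. Its percentiles, 29.5, 53.9 and 64.4 in silenced and 46.4, 54.9 and 45.7 in control libraries, spread more between silenced replicates than between groups (score difference 0.00, SE 0.21, limma adjusted p = 0.998). SCD5, its paralog, had a mean percentile of 26.6.

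ELOVL5, an elongase of polyunsaturated chains, had heights of 70, 69 and 33 in silenced and 59, 65 and 58 in control replicates 1, 2 and 3. The percentiles were 82.8, 76.5 and 76.4 in silenced and 75.3, 73.8 and 73.3 in control libraries, a separation without overlap but of small size (score difference 0.15, SE 0.15, limma adjusted p = 0.938). Without silenced replicate 1 the difference was 0.07, and ranked among regions in place of gene ends the same peaks overlapped between groups. ELOVL6, the elongase of saturated chains, had a mean percentile of 12.3. The front-end desaturases FADS1 and FADS2 stand head to head and had mean percentiles of 60.4 and 68.2, and FADS3 had 18.3. The FADS2 mean mixes different peaks. In silenced replicate 3 its value came from the peak over the FADS1 start, with a height of 19 counted for both genes.

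FADS1 and FADS2 shared their open chromatin. The region over the FADS1 start (chromosome 11, 61816699 to 61817254) reached heights of 35, 59 and 19 in silenced and 49, 45 and 49 in control replicates 1, 2 and 3. A neighbouring region upstream of FADS2 and inside FADS1 (61815092 to 61815729) had 47, 75 and 16 in silenced and 52, 64 and 51 in control replicates 1, 2 and 3. Both were called in all 6 libraries, while a further region over the listed FADS2 starts (61816037 to 61816623) was called in 4, with a height of 28 in silenced replicate 1 and 15, 19 and 16 in the control libraries. That region was thus called in 1 of 3 silenced and 3 of 3 control libraries, a contrast that was not tested.

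Acyl-CoA synthetases activate long-chain fatty acids for glycerolipid synthesis, and this small class held both the largest positive and the largest negative score difference among the members. ACSL4, which prefers arachidonic acid, had heights of 28, 32 and 10 in silenced and 33, 44 and 43 in control replicates 1, 2 and 3 (chromosome X, 109732884 to 109733771). Its percentiles were 40.8, 40.1 and 28.1 in silenced and 46.4, 54.9 and 58.7 in control libraries, without overlap. The score difference was -0.44 (SE 0.17), with unadjusted p = 0.0222 and limma adjusted p = 0.922. It was -0.69 when genes were ranked by fold enrichment and -0.31 without silenced replicate 3.

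ACSL1, the synthetase best known from liver and fat, had heights of 13, 14 and 7 in silenced and 13, 10 and 8 in control replicates 1, 2 and 3. Its percentiles were 15.3, 13.1 and 16.3 in silenced and 12.8, 6.005 and 4.78 in control libraries, so silenced libraries lay above control libraries, the closest pair by a small margin. The score difference was 0.41 (SE 0.23, limma adjusted p = 0.922), at peaks low enough that a few fragments move the rank, and ranked among regions the same peaks overlapped between groups. ACSL3, a synthetase of lipid droplets and the endoplasmic reticulum, had heights of 72, 72 and 26 in silenced and 74, 81 and 84 in control replicates 1, 2 and 3, with overlapping percentiles. ACSL5 had no gene-end peak in any library and no region called in all 6, and the 16 regions in its span had heights of at most 5.

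Across the pathway, no member passed the test between silenced and control cells. Of the 34 members tested, 0 passed an adjusted p of 0.05 by limma, where 0.0129% of the 15504 genes passed (2 genes, MTMR4 and LOC105374606, named after their values were seen). The adjusted p of the members ran from 0.922 to 0.998. An unadjusted p under 0.05 was reached by 1 member (2.94%), ACSL4, against 5.15% of all genes. The 3 silenced percentiles lay above the 3 control percentiles without overlap at 3 members (8.82%, against 5.32% of all genes), FDPS, ELOVL5 and ACSL1. They lay below at 4 members (11.8%, against 5.24% of all genes), SC5D, INSIG1, SREBF1 and ACSL4.

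The mean score was lower in silenced than in control cells at 23 of 34 members (67.6%), against 49.2% of all genes, with a median difference of -0.08 over the members and 0.00 over all genes. By role, it was lower at 7 of 8 genes of the squalene and sterol arm, 2 of 5 of the mevalonate arm, 3 of 6 regulators, 4 of 5 of fatty acid synthesis, 5 of 7 of desaturation and elongation and 2 of 3 acyl-CoA synthetases. Without silenced replicate 3, whose heights were the lowest, the count was 16 of 34, without the other libraries in turn 20 to 24, and ranked by fold enrichment it was 17 of 34. The members' median was 0.0042 without silenced replicate 3, -0.19 without silenced replicate 2, -0.13 without control replicate 2 and -0.0071 by fold enrichment. None of these counts has a test. A shift of 1 score unit, planted in simulated data of the same spread at 200 of 15504 genes, was recovered at 56.5% of them, and the member differences ran from -0.44 to 0.41, below that size.

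**Figure D2:**
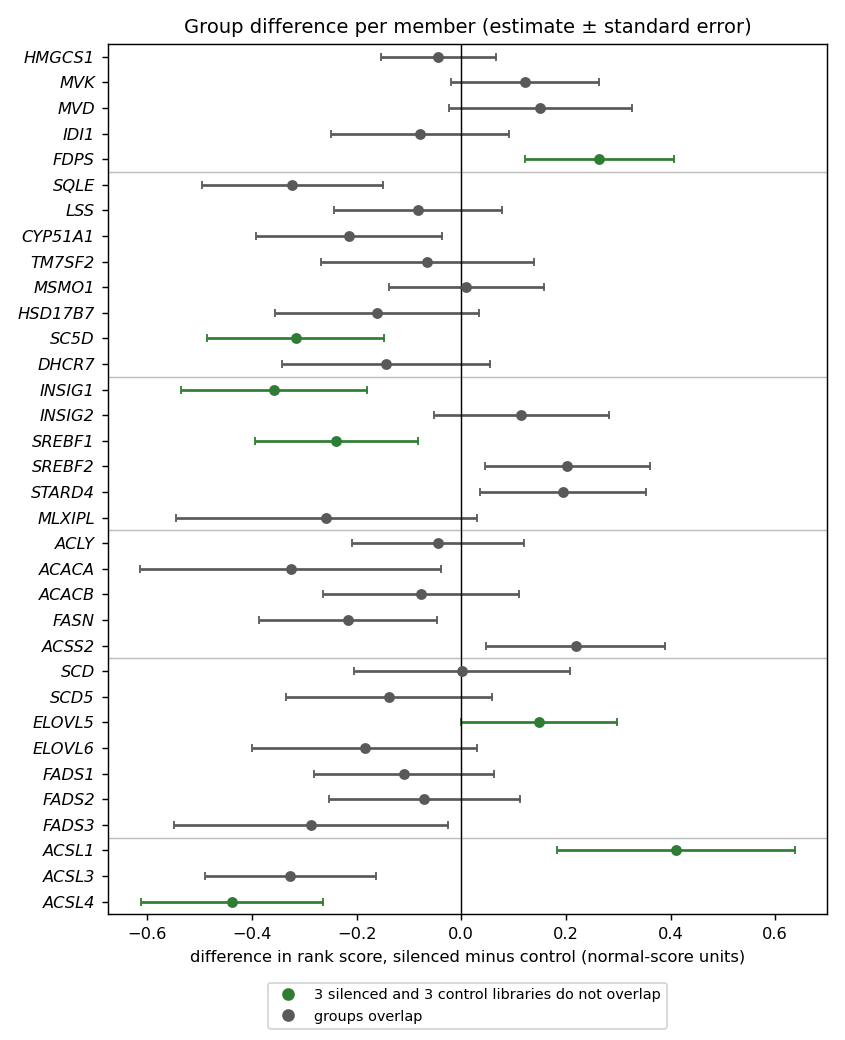
Difference in rank score between silenced and control cells (x axis, silenced minus control, in normal-score units) for the 34 members called in all 6 libraries, with bars of 1 standard error from limma. Green marks the 7 members whose 3 silenced and 3 control libraries did not overlap. The estimates run from -0.44 at ACSL4 to 0.41 at ACSL1.

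Several members have more than one listed start, and accessibility was uneven among them. At IDI1 the upstream start had heights of 34, 37 and 15 in silenced and 29, 42 and 42 in control replicates 1, 2 and 3, whereas a single region over the other listed starts (chromosome 10, 1048660 to 1049830) had 101, 114 and 58 in silenced and 124, 124 and 124 in control replicates 1, 2 and 3. The downstream region was the taller in each of the 6 libraries. Among the 37284 regions called in every library, it held percentiles of 98.1, 98.1 and 97.6 in silenced and 99.2, 98.6 and 99.1 in control libraries, without overlap (score difference -0.29, SE 0.12, unadjusted p = 0.0212, limma adjusted p = 0.971).

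ACACA has 3 listed starts. The upstream one gave the gene-end heights above, and the next one downstream (region 37358786 to 37359761 on chromosome 17) was taller in all 6 libraries, with 67, 63 and 25 in silenced and 66, 93 and 78 in control replicates 1, 2 and 3. Its percentiles among regions overlapped between groups (score difference -0.35, SE 0.14, unadjusted p = 0.0181, limma adjusted p = 0.971). The most downstream listed start was under a peak in silenced replicate 2 only, with a height of 5.

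ACSS2 and ACACB also had 1 listed start open and 1 not, whereas both listed starts of ACLY lay under the same peak. The region over the ACLY starts (41918473 to 41919807 on chromosome 17) had heights of 96, 134 and 40 in silenced and 101, 106 and 127 in control replicates 1, 2 and 3. At ACSS2 the first listed start was under no peak in any library, and the second was under peaks of 46, 49 and 39 in silenced and 52, 56 and 47 in control replicates 1, 2 and 3. At ACACB likewise the first was never under a peak and the second was in all 6 libraries. The peaks touching that second window had heights of 18, 45 and 6 in silenced and 35, 43 and 36 in control replicates 1, 2 and 3. The tallest peaks of the merged region there (chromosome 12, 109154461 to 109155430) had 33, 45 and 24 and the same control values, with a score difference of 0.09 (SE 0.15, limma adjusted p = 0.982). At each of these 3 genes the heights of the groups overlapped, silenced replicate 3 being the lowest library.

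Counted by gene, 31 of the 35 members with a window (88.6%) had at least 1 listed start window under a peak in all 6 libraries. The share was 40.0% of the 27304 protein-coding and lncRNA genes with a window. The members with no window covered in every library were SREBF1, MLXIPL, FADS2 and ACSL5. Per library, 32, 31 and 31 members had a covered window in silenced and 32, 33 and 32 in control replicates 1, 2 and 3. These average 31.3 ± 0.577 (SD, n = 3) and 32.3 ± 0.577 (SD, n = 3), a difference that did not pass (exact permutation test, two-sided, p = 0.3).

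**Figure D3:**
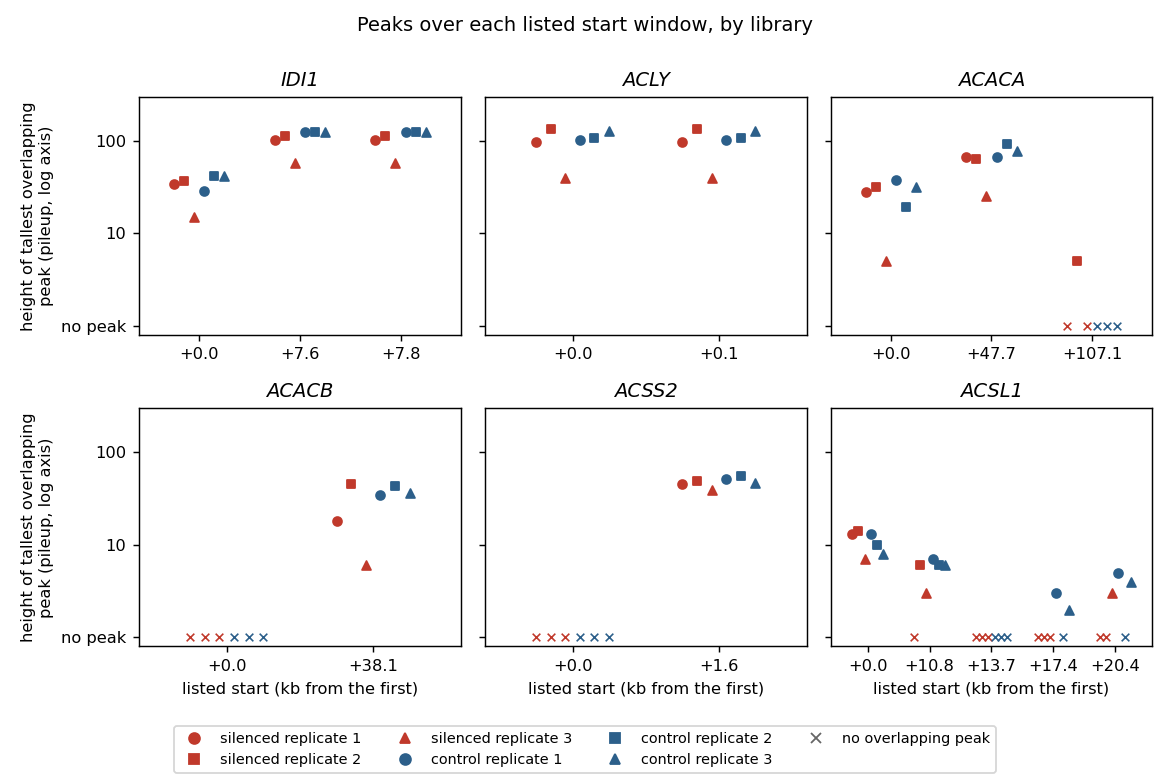
Height of the tallest peak over each listed start window (y axis, pileup on a log axis, crosses where no peak overlapped) at 6 members with more than 1 listed start, placed from the most upstream start (x axis, kb). Each symbol is 1 library, red for silenced and blue for control. The downstream starts of IDI1 and the second start of ACACA stand above the first in every library, and the first starts of ACACB and ACSS2 carry no peak.

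The spans of the 38 members cover 2.02 Mb and overlapped 500 regions made by merging the 6 lists. Of these, 72 (14.4%) were called in all 6 libraries and 337 (67.4%) in 1 library, against 7.35% and 74.1% of the 507440 regions genome-wide. The regions genome-wide include those outside genes, whereas all members are protein-coding. The shares over the spans of all protein-coding genes were not computed. Member spans took 0.114% ± 0.0118 (SD, n = 3) of a silenced library's peaks and 0.126% ± 0.0153 (SD, n = 3) of a control library's (exact permutation test, two-sided, p = 0.4). Restricting the lists to an FDR no higher than 1e-05 turned the sign, with 0.201% ± 0.0165 (SD, n = 3) and 0.187% ± 0.00482 (SD, n = 3) (exact permutation p = 0.3). Every member but ACSL5 had at least 1 region called in all 6 libraries, and 38 of the 72 lay more than 1 kb from both span ends, in 20 members. Positions within exons or introns were not analysed here.

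MLXIPL and ACACA had the most regions called in every library, 7 each, followed by SREBF1 with 5. At MLXIPL the tallest lay at chromosome 7, 73629230 to 73629770, 4.98 kb from the listed start, with heights of 26, 26 and 14 in silenced and 21, 25 and 25 in control replicates 1, 2 and 3. Its gene-end peak, by contrast, reached 15 at most, and this interior region was taller than that peak in each library. Another interior region (73636194 to 73636708) was not taller in each library. It had 10, 10 and 7 in silenced and 9, 6 and 8 in control replicates 1, 2 and 3. At SREBF1 the tallest interior region (chromosome 17, 17817851 to 17818392, 18.9 kb from the listed start) had 35, 49 and 28 in silenced and 32, 56 and 41 in control replicates 1, 2 and 3. Heights overlapped between groups at both of these tallest regions. By percentile among regions, silenced lay above control libraries without overlap at the MLXIPL regions 73615906 to 73616302 and 73636194 to 73636708. Their score differences were 0.34 (SE 0.26) and 0.56 (SE 0.34), with limma adjusted p = 0.971 at each. The percentiles overlapped at the other MLXIPL regions called in every library.

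ACSL4 carried 3 regions called in all 6 libraries, and the groups lay in opposite order by rank at 2 of them. Its gene-end region ranked lower in silenced cells, as above, while an interior region 20.1 kb from the listed start (chromosome X, 109713030 to 109713381) ranked higher, with heights of 28, 27 and 19 in silenced and 17, 27 and 17 in control replicates 1, 2 and 3. The percentiles of the interior region among all regions were 72.5, 66.2 and 77.8 in silenced and 49.8, 64.4 and 49.2 in control libraries, without overlap. The margin was small at the closest pair, silenced and control replicate 2, which had the same height of 27. The score difference was 0.48 (SE 0.19, unadjusted p = 0.0185, limma adjusted p = 0.971).

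In the comparison of all regions called in every library, 0 of the 72 member regions and 0% of the 37284 regions passed an adjusted p of 0.05 by limma. At an unadjusted p under 0.05 there were 5 member regions (6.94%), against 4.34% genome-wide. They lay at IDI1, INSIG1, ACACA and, with both regions described above, ACSL4. The groups did not overlap at 4 regions higher in silenced cells (5.56%, against 5.11%) and 5 lower (6.94%, against 4.67%). The score was lower in silenced cells at 41 member regions (56.9%) and higher at 31, with a median of -0.03, against 50.1% lower and a median of -0.00049 over all regions.

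Regions called in all 3 libraries of 1 group and none of the other numbered 2 for silenced cells (0.4%, against 0.130% of all regions) and 2 for control cells (0.4%, against 0.200%). The silenced ones lay in ACACA (chromosome 17, 37092539 to 37092842, heights 5, 4 and 5) and in ACSL3 (chromosome 2, 222879335 to 222879582, heights 3, 3 and 3). The control ones lay in ACACB, at chromosome 12, 109134127 to 109134655 (heights 8, 8 and 8) and 109264163 to 109264690 (heights 2, 5 and 3). All 4 were low, and counting only peaks with an FDR no higher than 1e-05 left 0 regions of either kind. The counts were larger when a library of the same group was left out, so that fewer libraries had to meet the condition. There were 6 to 7 silenced-only regions without any 1 silenced library, and 4, 8 and 5 control-only regions without control replicates 1, 2 and 3. Control replicate 2 had the shortest list (91346 peaks), and its part in these counts was not tested.

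**Figure D4:**
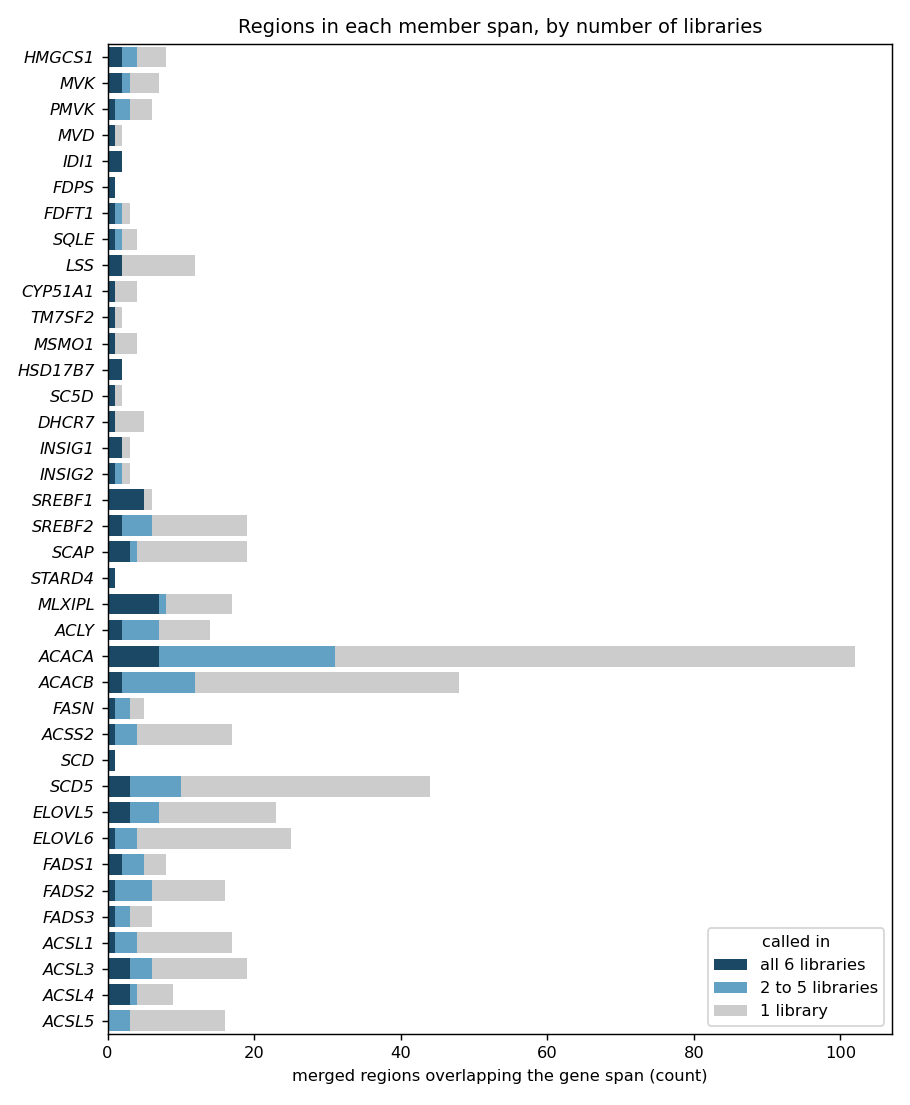
Number of merged regions overlapping each member's span (x axis, count), split by whether the region was called in all 6 libraries, in 2 to 5, or in 1. ACACA has the longest bar with 102 regions, of which 7 were called in every library, and ACSL5 is the member without any such region.

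Of 23 further genes of sterol and fatty acid metabolism, 18 had a gene-end peak in all 6 libraries (78.3%, against 58.0% of protein-coding genes). Such a peak was called in some libraries at 3 genes and in none at 2, GGPS1 and TECR (8.70%, against 16.5%). GGPS1 makes geranylgeranyl diphosphate, and TECR completes each round of very long chain elongation. Peaks inside the spans or over the listed starts of GGPS1 and TECR were not examined. The missing gene-end peak therefore does not show that these genes were closed. At the 18 tested, 0 passed an adjusted p of 0.05 by limma (smallest adjusted p = 0.922), against 0.0129% of all genes. An unadjusted limma p under 0.05 was reached at 0, against 5.15% of all genes. Groups without overlap were seen at 0, against 5.32% of all genes with silenced higher and 5.24% with silenced lower. The score was lower in silenced cells at 12 of the 18 (66.7%, against 49.2% of all genes) and higher at 6, with a median difference of -0.07. This count has no test and was not repeated without silenced replicate 3. ACAT2, the cytosolic thiolase that feeds the mevalonate pathway, had the highest mean percentile of this list (98.03).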

How the data were processed

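Peaks on chromosomes 1 to 22, X and Y of 6 ATAC-seq libraries were analysed. The submitters' processing notes name Trimmomatic 0.36, Bowtie2 2.2.6, Picard 2.8.2, MACS2 2.1.1, bedtools 2.25.0 and GRCh38, without settings. Duplicate handling and a shift of read ends for the transposase are not given in the sources used here. Per the file headers, the authors deposited for each peak a fold enrichment (ratio), a p-value, an FDR and a pileup signal (the height). No deposited p-value exceeded 0.00987. Read depth is unknown, so the depth behind each height is known only in relative terms.

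Gene spans came from RefSeq (GRCh38.p14). Each gene took its tallest peak with a midpoint within 1 kb of either end. Heights were ranked within each list among genes called in all 6 lists, turned into normal scores and tested with limma 3.58.1 (R 4.3.3, mean-dependent prior, Benjamini-Hochberg threshold 0.05), likewise for regions merged at an overlap of 1 bp. Values per library were tested by exact permutation (SciPy 1.17.1). On simulated data, shifts of 2 units at 200 of 15504 genes were recovered at 98.5%, and of 200 of 37284 regions, 29.0% were recovered at 1 unit.

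Members and lists were chosen with earlier results of these data known. Members named with values per library were those fixed for their role, those lacking a gene-end peak in a library, those whose groups did not overlap, those with a region of 1 group only, and those with the most shared regions or the tallest peaks. IDI1, FADS1, FADS2 and ACAT2 were named outside this rule after their values were seen. Promoters printed hold a motif match under a peak. Alternatives were FDR, height, list size, window, overlap, ranking, each library left out, and a replicate block.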

Additional observations from a re-analysis of the deposited data

How the results depend on the processing

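Read depth is unknown, silenced replicate 3 had the lowest coverage, and 3 libraries a group cannot give an exact p below 0.1. Differences are silenced minus control. The difference in members with a gene-end peak, 0.333 over complete lists, changed sign to -2 (strict FDR, no higher than 1e-05), to -0.667 (FDR below 0.05, or equal list sizes), to -0.333 (heights from 4 up) and to -1 with a window of 500 bp, and it was 0 with a window of 2 kb. The share of peaks in member spans, -0.0127 percentage points, changed sign to 0.0137 under the strict FDR and to 0.00804 with heights from 4 up. With equal list sizes it was -0.000365. It was -0.00411 without control replicate 2, the shortest list, and -0.0193 without silenced replicate 3. The cause was not tested. The difference in members with a covered promoter window, -1, kept its direction in all alternatives run. Regions called only in silenced libraries, 2 over complete lists, numbered 0 under the strict FDR and 1 with heights from 4 up. Those called only in control libraries, also 2, numbered 0 under the strict FDR and 1 with FDR below 0.05, with heights from 4 up, with equal list sizes and with a merge overlap of 100 bp. The 2 genes called among all genes became 4 when genes called in at least 4 libraries were included, and the members called stayed at 0 in all alternatives. The score difference of SREBF1 changed sign to 0.0775 when ranked by fold enrichment, and the other 6 members without overlap kept their direction in 11 of 11 alternatives.

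Leaving out each library gave differences of 0.167 to 0.667 members with a gene-end peak and -0.0193 to -0.00411 percentage points. For members with a covered promoter window the difference was -1.33 to -0.667. There were 2 to 7 silenced-only and 2 to 8 control-only regions (fewer libraries must meet the condition). Genes called numbered 2 to 4 (4 without control replicate 1 or 2), and members with a lower score 16 to 24. With the replicate number as a block (replicate block) the differences stayed at 0.333, -0.0127 and -1 because the groups are balanced (exact sign-flip p = 1, 0.75 and 0.5), 3 genes were called and 0 members. Same-numbered libraries did not deviate together (correlations of deviations 0.00692, -0.00839 and 0.00166). These correlations cannot exclude a shared culture or day, which the labels do not give. No region passed in any fit by limma, with 1217 to 2655 regions at an unadjusted p under 0.05. The fit of regions without a mean-dependent prior was added after the data were seen.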
